A study of Mus musculus with 2 samples.

Results

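Indirect pathway-type neurons were taken as the GABAergic cells that held transcripts of the genes by which striatal projection neurons of the indirect pathway are known. Cells were selected on their own measured counts. A cell needed at least 1 unique molecular identifier (UMI, the tag that marks 1 captured RNA molecule) of Gad1 or Gad2, at least 1 of Bcl11b, and at least 2 summed over Penk, Gucy1a3 and Adora2a. That sum had to be at least as large as the sum over Isl1, Ebf1 and Tac1, which mark the direct pathway. Cells with Lhx6 (an interneuron factor), with 3 or more UMIs of the caudal interneuron genes Adarb2, Prox1, Npas1 and Htr3a, with 2 or more of the glutamatergic genes Neurod2 and Neurod6, or with 3 or more of the cell cycle genes Mki67, Top2a and Cenpf were left out. The rule held for 388 of 12846 kept cells, 230 from WT and 158 from cKO. The levels of the selecting genes are therefore given below as a description only.

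The cells came from C57BL/6 mice at postnatal day 0. One library was made from mice labelled wild type (WT) and one from STINGf/f;Nestin-Cre (cKO) mice. In the cKO mice Cre recombinase, driven by the Nestin promoter, deletes the floxed STING gene in the neural lineage, which does not include microglia and vessels. The study's text also names the control of its single-cell data STINGfl/fl, the floxed mice without Nestin-Cre. The labels name telencephalic tissue, and the study's methods describe dissociated cerebral cortex captured with 10x Genomics Chromium. How many animals went into each library, and from where in the telencephalon each cell came, is not given in the sources used here. With 1 library per genotype, each difference between WT and cKO is a difference between 2 libraries with no replicate check, and all intervals (95%) cover counting error only.

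Striatal projection neurons are the GABAergic output cells of the striatum. They are born in the lateral ganglionic eminence and divide into direct pathway cells, which make the dopamine receptor Drd1 and the peptides encoded by Tac1 and Pdyn, and indirect pathway cells, which make the dopamine receptor Drd2, the adenosine receptor Adora2a and the enkephalin precursor Penk. The transcription factors Six3 and Sp9 are needed for the indirect pathway cells to form, and Isl1 and Ebf1 act in those of the direct pathway. Gucy1a3 and Gucy1b3 encode the subunits of soluble guanylyl cyclase, the enzyme that makes cGMP in response to nitric oxide.

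The WT file held 10715 barcodes with 69554624 UMIs and the cKO file 9198 barcodes with 67448785 UMIs, of which 6766 and 6080 were kept. The median depth of kept cells was 6653 UMIs in WT and 7629 in cKO. The libraries shared 19 barcode sequences, 8 of them kept in both, and no cell of the indirect pathway type was in both. Tmem173, the gene of STING, gave 1 UMI in the WT and 2 UMIs in the cKO indirect pathway-type neurons, too few to check the deletion in these cells, and stood at 32.2 and 6.81 CPM (counts per 1000000 UMIs, with the cells of a class summed) in microglia. Xist, the X-inactivation RNA, was at 0 UMIs in the WT and at 1190 CPM in the cKO indirect pathway-type neurons, while the Y-linked helicase gene Ddx3y was at 41.6 CPM in WT and 0 in cKO. The sex of the animals and their genotype therefore cannot be told apart.

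Indirect pathway-type neurons made up a smaller share of the kept cells in cKO than in WT. The 230 WT cells were 3.40% of the kept cells (exact Clopper-Pearson interval 2.98 to 3.86) and the 158 cKO cells 2.60% (2.21 to 3.03), a difference of -0.801 percentage points (cKO minus WT, -1.40 to -0.199). Among cells with a Gad1 or Gad2 UMI the shares were 10.2% (8.95 to 11.5) in WT and 8.46% (7.24 to 9.81) in cKO, a difference of -1.71 points (-3.50 to 0.115). For the balance of the pathways the interval of the difference, which covers counting error only, was wide and held 0. Both types are defined by genes of the rule, so the balance also depends on the levels of those genes. Of the indirect and direct pathway-type neurons together, 65.5% (60.3 to 70.5) were of the indirect type in WT and 65.6% (59.2 to 71.5) in cKO, a difference of 0.0331 points (-8.04 to 7.98).

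The share moved with the genes that selected the cells. Gucy1a3, the most frequent of them, was lower in cKO in all 5 neuron classes compared below. Cells chosen instead by at least 1 UMI each of Six3 and Sp9, within the same Gad1 or Gad2, Bcl11b and exclusion criteria but with no condition on Isl1, Ebf1 and Tac1, were 2.84% (2.46 to 3.26) of WT and 2.48% (2.11 to 2.91) of cKO cells. Of these cells 131 of 192 in WT and 75 of 151 in cKO also met the rule. The intervals of the WT and cKO shares overlapped under this choice, for which no interval of the difference was computed. Under the rule itself they overlapped only from 2.98 to 3.03%, and the interval of the difference was -1.40 to -0.199 points. With Gucy1a3 left out of the sum and at least 2 UMIs of Penk and Adora2a required, the shares were 1.52% in WT and 1.02% in cKO. Among cells of at least 5000 UMIs alone, the rule gave shares of 3.84% (3.30 to 4.43) in WT and 3.33% (2.82 to 3.89) in cKO. With each of these cells thinned to 5000 UMIs before the rule was applied, the shares were 3.06% (2.59 to 3.60) in WT and 2.44% (2.01 to 2.93) in cKO. The WT and cKO intervals overlapped both with and without thinning. The WT indirect pathway-type neurons had a lowest count of 1554 UMIs, a median of 6632.5 and a highest of 35161, and the cKO cells 2532, 7840 and 78150. Mitochondrial genes took a median of 6.78% of the UMIs in WT and 7.46% in cKO. Only 32 WT and 18 cKO cells passed a stricter limit of at least 1000 genes and at most 5% mitochondrial UMIs.

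The genes that selected the cells were unequal contributors. Gucy1a3 was found in 224 of the 230 WT cells (97.4%) and in 145 of the 158 cKO cells (91.8%). Adora2a was found in 52.2% of the WT and 60.1% of the cKO cells, and Penk in 81 WT (35.2%) and 42 cKO cells (26.6%). All 3 genes were present together in 48 WT and 20 cKO cells. By contrast, 78 WT (33.9%) and 48 cKO cells (30.4%) qualified on Gucy1a3 alone.

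The sum of the 3 selecting genes was lower per cell in cKO. It had a median of 10 UMIs in WT, with a range of 2 to 154, and a median of 4 in cKO, with a range of 2 to 28. Gucy1a3 set most of this, with a median of 8 UMIs per WT cell and 2 per cKO cell, while Bcl11b, a zinc finger factor of striatal projection neurons, had medians of 10 and 9. Just inside the threshold, with a sum of exactly 2, were 25 WT (10.9%) and 39 cKO cells (24.7%). Just outside it, with a sum of 1 and every other criterion met, were 64 WT and 54 cKO cells. A UMI of Isl1, Ebf1 or Tac1 was present in 19 WT and 7 cKO cells, and 2 WT cells and 1 cKO cell had equal sums for the 2 pathways.

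**Figure D1:**
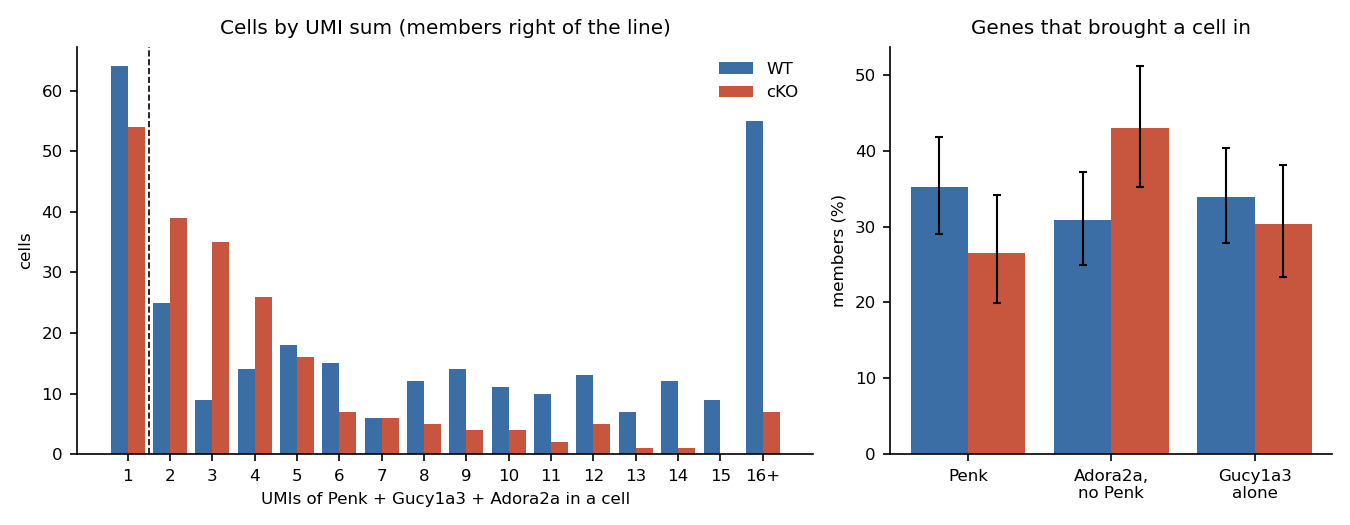
Left, number of cells (y axis) by their UMI sum of Penk, Gucy1a3 and Adora2a (x axis, with 16 and above pooled) in WT (blue) and cKO (red), the cells with a sum of 1 lying just outside the rule. Right, percentage of indirect pathway-type neurons with Penk, with Adora2a but no Penk, or with Gucy1a3 alone, with Clopper-Pearson intervals. A sum of exactly 2 was found in 25 WT and 39 cKO cells, and a sum of 16 or more in 55 WT and 7 cKO cells.

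The label was checked with genes that the rule did not use, and the transcription factors known from indirect pathway cells were high. Six3 was at 466 CPM (Poisson interval 435 to 500) in WT and 309 CPM (281 to 339) in cKO indirect pathway-type neurons, against 60.7 and 25.4 CPM in direct pathway-type neurons. Sp9 was at 359 CPM (331 to 388) in WT and 313 CPM (284 to 343) in cKO, against 21.6 and 23.2 CPM in direct pathway-type neurons. After each cell was thinned to 2000 UMIs, Six3 was found in 43.4% of WT and 29.7% of cKO indirect pathway-type neurons, and in 7.14% and 2.41% of direct pathway-type neurons. It was found in 0 of 55 WT microglia, which by the limit of 3 counts for a count of 0 allows a share of up to 5.45%, and in 0 of 28 cKO microglia, which allows up to 10.7%. Microglia (cells with at least 3 UMIs of the complement genes C1qa, C1qb and C1qc) should lack these genes and so show the level of free RNA, and their median depths of 9951 and 12470 UMIs before thinning were above those of the neurons. Without thinning, Six3 was found in 150 of the 230 WT and 79 of the 158 cKO cells. Sp9 was shared with Lhx6 interneurons (GABAergic cells with Lhx6 transcripts, of the medial ganglionic eminence type), where it stood at 341 CPM in WT and 243 CPM in cKO.

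Some listed genes common to both striatal pathways were also high, and others were low. Ikzf1 gave 5 WT and 0 cKO UMIs, Adcy5 22 and 17, Rgs9 38 and 20, and Pde1b 40 and 22. The 25 listed genes outside the rule summed to 5567 CPM in WT and 4763 CPM in cKO. They summed to 4599 and 5336 CPM in direct pathway-type neurons and to 979 and 647 CPM in Lhx6 interneurons. In Bcl11b glutamatergic neurons, defined below, the sums were 1903 and 1364 CPM. Foxp1, a forkhead factor of striatal projection neurons, was at 1664 CPM in WT and 2288 CPM in cKO indirect pathway-type neurons and was found in 76.3% and 92.4% of thinned cells, against 9.09% and 3.57% of microglia. Direct pathway-type neurons had 1038 and 1891 CPM of Foxp1, and Lhx6 interneurons 110 and 92.0 CPM. Meis2, a homeobox factor of the lateral ganglionic eminence, was at 1859 CPM in WT and 1178 CPM in cKO and was found in 93.0% and 89.2% of cells. The retinoid receptor gene Rxrg was at 233 and 88.1 CPM and its partner gene Rarb at 95.8 and 67.5 CPM. Ppp1r1b, which encodes the dopamine-regulated phosphoprotein DARPP-32, was at 79.3 and 51.1 CPM, below the 192 and 364 CPM of direct pathway-type neurons.

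Several genes by which indirect pathway or adult striatal cells are known were near or at 0. Drd2, the dopamine receptor of the indirect pathway, gave 1 UMI in WT and 0 in cKO, and so did not bear out the label. Drd1 was at 54.5 CPM in WT and 77.2 CPM in cKO direct pathway-type neurons. The reason for the near absence of Drd2 was not tested. Gpr6, a receptor enriched in adult indirect pathway cells, gave 16 WT and 4 cKO UMIs, and the sodium channel subunit gene Scn4b gave 0 in both. Summed over the 6 listed indirect pathway genes that the rule did not use, the level was 877 CPM in WT and 658 CPM in cKO, against 88.5 and 49.6 CPM in direct pathway-type neurons, 412 and 274 CPM in Lhx6 interneurons and 172 and 152 CPM in caudal-type interneurons. Six3 and Sp9 made up most of it. For the 6 direct pathway genes that the rule did not use, the sums were 10.3 and 12.8 CPM in indirect and 135 and 162 CPM in direct pathway-type neurons.

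**Figure D2:**
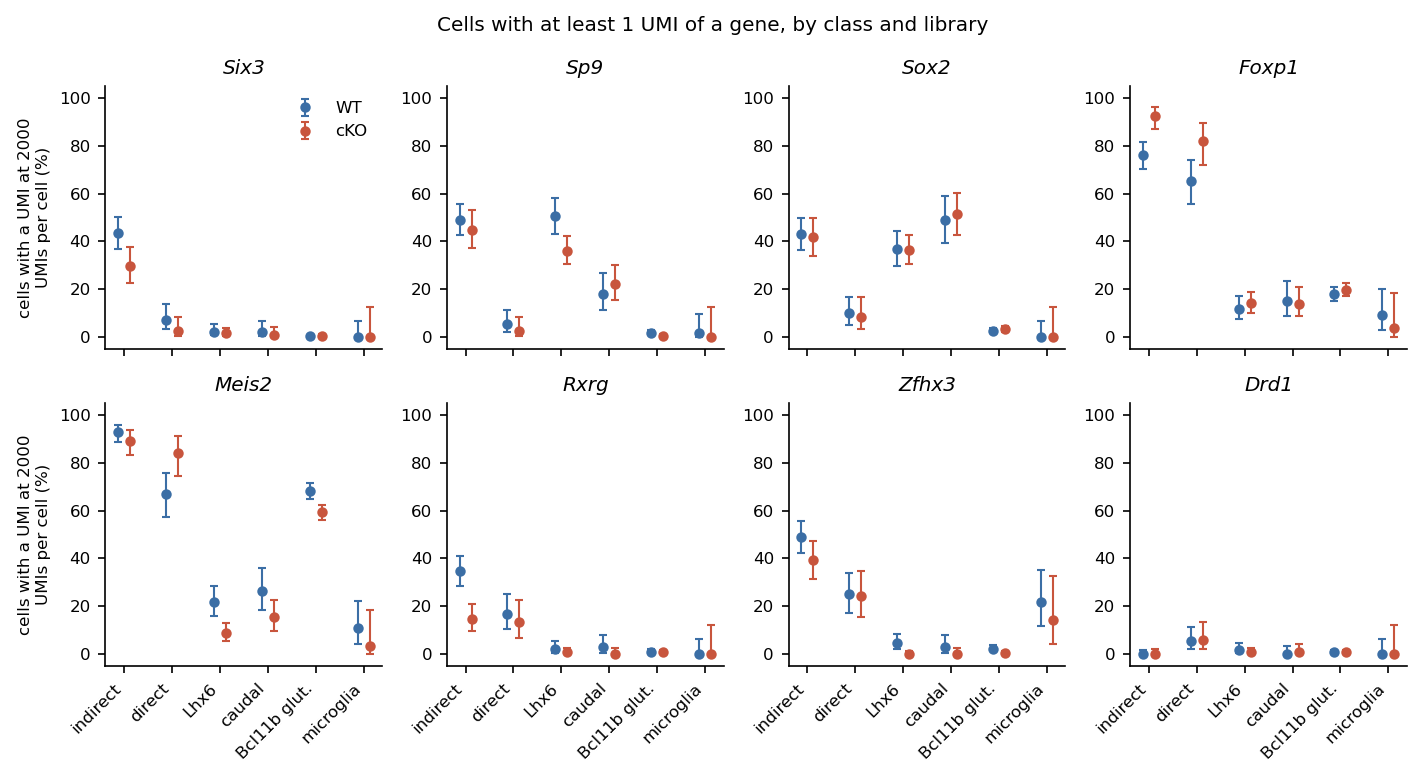
Percentage of cells with at least 1 UMI of each gene after thinning to 2000 UMIs per cell (y axis), in indirect and direct pathway-type neurons, Lhx6 and caudal-type interneurons, Bcl11b glutamatergic neurons and microglia (x axis), for WT (blue) and cKO (red), with Clopper-Pearson intervals. Six3 was found in 43.4% of WT and 29.7% of cKO indirect pathway-type neurons and in no more than 7.14% of the cells of any other class shown, while Sp9 and Sox2 were also frequent in interneurons.

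Some of the cells also held transcripts of other cell types. At least 3 UMIs of vascular genes were found in 4 WT and 2 cKO cells, and of glial genes in 8 WT and 5 cKO cells. At least 5 UMIs of the interneuron peptides Npy and Sst were found in 9 WT cells and 0 cKO cells, and at least 3 UMIs of glutamatergic genes in 3 WT cells. One cKO cell held both microglial and granulocyte genes. Together these were 21 of the 230 WT and 8 of the 158 cKO cells, and their median depths were 9530 and 15959.5 UMIs. They included 7 of the 8 WT and 4 of the 5 cKO cells whose doublet scores were highest. Summed over the 8 vascular genes, indirect pathway-type neurons had 310 CPM in WT and 415 CPM in cKO, against 103 and 6.62 CPM in direct pathway-type neurons. UMIs were found for 7 of the 8 vascular genes in both libraries. The 8 microglial genes summed to 8.55 CPM in WT, where 5 had a UMI, and 7.81 CPM in cKO, where 2 had one. Results are given below with all cells, and again without these 29 for many, but not all, of the calls that this ended or made.

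To see what set the cells apart from their closest relatives, they were compared with 204 direct pathway-type neurons (121 WT and 83 cKO), which met the same rule but with at least 2 UMIs of Isl1, Ebf1 and Tac1 and more of these than of the indirect genes. A gene was called when the ratio of CPM + 10 was at least 2-fold in both libraries. Few genes were called. Of 8101 genes tested, 36 (0.444%) were higher and 51 (0.63%) lower in the indirect pathway-type neurons. Without the cells that held markers of another type, 19 were higher and 77 lower of 7408.

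Transcription factors led the higher genes. Sp9 was 3.54 log2 units higher in WT and 3.28 in cKO (on the CPM + 10 scale, as below), and Six3 2.75 and 3.17. Ptprm, a receptor tyrosine phosphatase gene, was at 55.3 CPM against 4.12 CPM in WT and at 51.1 against 1.10 CPM in cKO. Sox2 and Sox9, factors best known from neural progenitors, were also higher. Sox2 was at 339 CPM against 49.4 CPM in WT and at 298 against 93.8 CPM in cKO, and Sox9 at 93.5 against 11.3 CPM and at 119 against 27.6 CPM. Both were called as well without the cells that held glial or other foreign markers, where the smaller log2 difference was 2.81 for Sox2 and 2.79 for Sox9.

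The other 5 of the 10 highest genes were Rgs5, Slc38a5, Ctla2a, Sepp1 and Bgn, which are known from vascular and perivascular cells. Their UMIs came from 1 to 3 cells in cKO and 3 to 9 cells in WT. Ctla2a, for example, gave 113 UMIs in 1 cKO cell and 109 UMIs in 4 WT cells. None of these 5 was called once the cells with foreign markers were left out of both pathway types. Rgs5 was itself among those markers, so for it this is no independent check.

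Among the genes lower than in direct pathway-type neurons were markers of that pathway and genes of neuronal maturation. The dopamine receptor gene Drd1 was at 3.42 CPM against 54.5 CPM in WT and at 0.710 against 77.2 CPM in cKO. Pdyn, the dynorphin precursor gene, gave 1 UMI in each library, against 28 UMIs in both sets of direct pathway-type neurons. Ikzf1, a zinc finger factor, was at 2.85 against 38.1 CPM in WT and at 0 against 54.1 CPM in cKO. The neurofilament gene Nefl was at 27.9 against 178 CPM in WT and at 9.24 against 110 CPM in cKO.

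Dio3, Ramp1, Syt4, Lingo2 and Tmem158 were also among the 10 lowest, and the smaller of their log2 differences in the 2 libraries lay between -1.95 and -1.81. Dio3 encodes the deiodinase that inactivates thyroid hormone, Ramp1 a partner protein of peptide receptors, and Syt4 a synaptotagmin. All 10 lowest genes were also called without the cells that held foreign markers.

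By list, the 3 tested indirect pathway genes outside the rule, Six3, Sp9 and the purinergic receptor gene P2ry1, were all higher. The 3 tested direct pathway genes, Drd1, Pdyn and Zfp521, were all lower. In the indirect type Drd1 gave 6 WT and 1 cKO UMIs, Pdyn 1 and 1, and Zfp521 7 and 11. These genes passed the filter through the direct type alone, and P2ry1 through the indirect type alone, where it gave 30 and 32 UMIs. The filter thus set the direction of Drd1, Pdyn, Zfp521 and P2ry1. In these lists only the calls of Six3 and Sp9 could have gone either way. Of 21 genes common to striatal projection neurons 0 were higher and 3 lower (Ppp1r1b, Ikzf1 and Foxp2). Of 29 factors of the lateral ganglionic eminence lineage, 4 were higher (Six3, Sp9, Meis1 and Id4) and 2 lower (Foxp2 and Ikzf1). Ikzf1, with 5 WT and 0 cKO UMIs in the indirect type, likewise passed the filter through the direct type alone. Some listed genes were called only without the cells with foreign markers. Among them were the factor gene Dlx2, higher by 1.02 in WT and 1.44 in cKO, and the striatal gene Adcy5, lower at -1.2 and -1.1. Of 21 genes of neuronal maturation 4 were lower, Nefl and Nefm among them, and 0 higher, and of 8 genes of GABA synthesis, packaging and uptake none was called. The background was 0.444% of all genes higher and 0.63% lower.

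**Figure D3:**
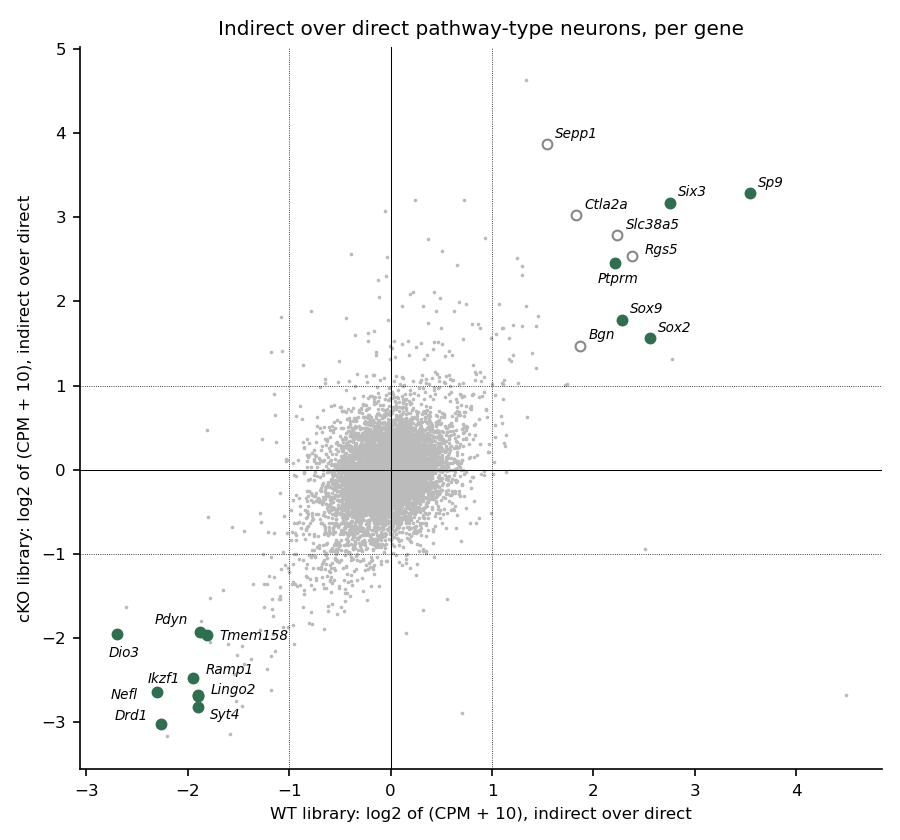
Log2 ratio of CPM + 10 in indirect over direct pathway-type neurons for each of 8101 genes, in the WT library (x axis) and the cKO library (y axis), with dotted lines at 2-fold. Named genes are among the 10 highest and 10 lowest by the smaller of both values. Filled points, such as Sp9 (3.54 and 3.28) and Six3 (2.75 and 3.17), were also called without the cells that held markers of another type, and open points were not.

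Against interneurons the cells were marked by striatal genes. Compared with 462 Lhx6 interneurons, 129 of 8889 genes (1.45%) were higher and 153 (1.72%) lower in the indirect pathway-type neurons. Foxp1, Rxrg and Zfhx3, a zinc finger homeobox gene, had the largest ratios among the named genes also called without the cells with foreign markers. Zfhx3 was at 392 against 40.2 CPM in WT and at 245 against 4.60 CPM in cKO. Among the lowest were the peptide genes Sst and Npy, the factor gene Maf, and Nxph1, which encodes a secreted neuronal glycoprotein, all characteristic of the medial ganglionic eminence lineage. Sst was at 124 against 3250 CPM in WT and at 11.4 against 1151 CPM in cKO. With all cells, of 20 striatal projection neuron genes 12 were higher and 0 lower, and all 12 tested interneuron genes of the medial type were lower. Foxo1 was among the higher genes, and in cKO 1 cell held 18 of its 62 UMIs. Nkx2-1, Lhx8 and Sox6 had fewer than 20 UMIs in the indirect pathway-type neurons, so these medial genes were tested only through the interneurons. The vascular genes Cldn5 (higher by 3.68 or more in both libraries) and Sparc and Sepp1 were also among the 6 highest, but were not called without the cells with foreign markers, which left 79 genes higher and 236 lower of 8520. Cldn5 was itself among the markers that defined these cells. Such cells were left out of the indirect pathway-type neurons but not of either interneuron class, so the comparison without them was cleaned on 1 side only.

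Compared with 249 caudal-type interneurons (GABAergic cells with at least 3 UMIs of the caudal genes of the rule), 164 of 8075 genes (2.03%) were higher and 177 (2.19%) lower. Zfhx3, Foxp1, Rxrg, Six3 and the POU factor gene Pou3f1 were the highest besides Cldn5. Cldn5, itself a foreign marker, was not called without the cells with foreign markers. Pou3f1 was at 291 against 22.1 CPM in WT and at 277 against 14.9 CPM in cKO. Lowest were the cannabinoid receptor gene Cnr1, Gm17750, Maf, the growth factor gene Igf1, the neuronal PAS factor gene Npas3 and the nociceptin precursor gene Pnoc. Cnr1 was at 33.1 against 1341 CPM in WT and at 8.52 against 543 CPM in cKO. Again 12 of 20 striatal projection neuron genes were higher, and 1 (Rasd2) was lower.

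To ask how indirect pathway-type neurons differed between genotypes, the UMIs of all members were summed per library. Of 9474 genes tested, 210 (2.22%) were at least 2-fold higher and 516 (5.45%) at least 2-fold lower in cKO than in WT. The median log2 difference over all tested genes was -0.05, with quartiles of -0.43 and 0.30. Without the cells that held markers of another type, 184 genes were higher and 535 lower of 8591.

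Gucy1b3 was lower in cKO. It was at 361 CPM (333 to 390) in WT and 102 CPM (86.3 to 120) in cKO, a log2 ratio of -1.82 (conditional binomial interval -2.09 to -1.56). Gucy1a3, its partner, is a gene of the rule and is given as a description, at 1081 CPM in WT and 325 CPM in cKO (-1.74, -1.89 to -1.59). The genes lie side by side on chromosome 3 (GRCm38), Gucy1b3 at 82032006 to 82074689 and Gucy1a3 at 82092427 to 82145789, both on the minus strand. Prkar2b, which encodes a regulatory subunit of protein kinase A, was at 172 and 54.7 CPM (-1.65, -2.04 to -1.29), and Pde4b, a cAMP phosphodiesterase gene, at 67.3 and 26.3 CPM. Of the 28 tested genes of cAMP and cGMP signalling outside the rule 5 were lower and 0 higher, against 5.45% and 2.22% of all genes. The others were Rgs4 and Nos1, and 23 of the 24 Nos1 UMIs came from 1 WT cell. Without the cells that held foreign markers 3 were lower, Prkar2b, Gucy1b3 and Pde4b.

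Gucy1b3, Gucy1a3 and Prkar2b were also at lower levels in cKO in the other 4 neuron classes, whereas Pde4b was at 17.5 CPM in WT and 17.1 CPM in cKO caudal-type interneurons. Gucy1b3 was at 136 CPM in WT and 62.9 CPM in cKO direct pathway-type neurons, at 75.4 and 25.8 CPM in Lhx6 interneurons, at 29.1 and 4.57 CPM in caudal-type interneurons, and at 71.3 and 25.8 CPM in Bcl11b glutamatergic neurons (cells with Bcl11b and at least 2 UMIs of Neurod2 and Neurod6, and no Gad1 or Gad2). All of these classes come from the same 2 libraries. Prkar2b likewise was at 198 and 106 CPM in direct pathway-type neurons and at 162 and 78.4 CPM in Bcl11b glutamatergic neurons. Cells chosen by Six3 and Sp9, with no use of Gucy1a3, gave a log2 ratio of -2.11 (-2.44 to -1.79) for Gucy1b3, -2.29 for Gucy1a3 and -1.97 for Prkar2b. They were not an independent set, as 131 of the 192 WT (68.2%) and 75 of the 151 cKO cells (49.7%) also met the rule.

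Of 28 tested factors of the lateral ganglionic eminence lineage outside the rule 5 were lower in cKO and 0 higher (5.45% and 2.22% of all genes), namely Dlx1, Dlx6os1, Foxp2, Rxrg and Tshz2. Rxrg was at 233 CPM in WT and 88.1 CPM in cKO (-1.40, -1.70 to -1.11), against 139 and 100 CPM in direct pathway-type neurons. Foxp2 was at 119 and 37.7 CPM, against 362 and 311 CPM in direct pathway-type neurons. Dlx6os1, a noncoding RNA gene on the strand opposite to Dlx6, was at 120 and 26.3 CPM, against 121 and 45.2 CPM in direct pathway-type neurons, 189 and 106 CPM in Lhx6 interneurons and 369 and 217 CPM in caudal-type interneurons. Reads of the overlapping genes cannot be told apart where strand was not used. Dlx1, a homeobox factor of GABAergic lineages, was at 106 and 39.8 CPM. It was at 44.3 and 22.1 CPM in direct pathway-type neurons, at 219 and 311 CPM in Lhx6 interneurons and at 425 and 563 CPM in caudal-type interneurons. Foxp1 ran the other way, with a log2 ratio of 0.46 (0.39 to 0.53), and was at 1038 and 1891 CPM in direct pathway-type neurons.

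The difference was smaller for all 5 of these factors in cells chosen by Six3 and Sp9. There the log2 ratio was -0.08 for Dlx1 (-0.41 to 0.24), -0.79 for Foxp2 and -0.94 for Dlx6os1. It was -1.22 for Rxrg (-1.58 to -0.87). On the CPM + 10 scale Rxrg (-1.13) was called in these cells, and Dlx1, Dlx6os1, Foxp2 and Tshz2 (-0.89) were not.

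Penk, a gene of the rule, was at 328 CPM in WT and 131 CPM in cKO (-1.32, -1.57 to -1.08), but the difference turned to 0.36 (CPM + 10) under the stricter limit on genes and mitochondrial UMIs. Of the 10 other tested genes of opioid and related peptides 1 was lower, the secretogranin gene Scg2 (108 and 41.9 CPM), and none without the cells with foreign markers. No gene of the 8 for GABA synthesis, transport and breakdown outside the rule was called with all cells, while Abat, which encodes GABA transaminase, was lower without the cells with foreign markers (68.1 CPM in WT and 26.2 CPM in cKO), and Slc32a1, the vesicular GABA transporter gene, was at 169 and 104 CPM. Of 21 maturation genes 2 were lower. One was Syt1 (185 and 61.8 CPM), which encodes the calcium sensor of transmitter release. Of 28 glutamate and GABA receptor genes 2 were lower, Grin3a and Grm4, and of 33 axon guidance genes 4 were lower, Efnb2, Unc5d, Nrp2 and Ntn1. Grin3a gave 22 WT UMIs and 1 cKO UMI, and Grm4 35 and 2. Both passed the filter through WT alone, which set their direction. Unc5d, Nrp2 and Ntn1 also had fewer than 20 UMIs in cKO. For the receptors, 2 of 28 was near the 5.45% of all genes. Without the cells with foreign markers Grin3a and Ntn1 were not called, and the receptor gene Gabra4 was lower (15.7 and 2.45 CPM). Gabra4, with 24 WT and 4 cKO UMIs in all cells, likewise passed through WT alone. In cells chosen by Six3 and Sp9 Efnb2 (-0.79) and Unc5d (-0.90) were not called either. Calb1, which encodes the calcium buffer calbindin and marks the striatal matrix, was at 72.4 CPM in WT and 9.24 CPM in cKO, and at 137 and 33.1 CPM in direct pathway-type neurons. Of 6 tested genes of nucleic acid sensing and of 11 immediate early genes, none was called. The background for these lists was 2.22% higher and 5.45% lower.

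Several genes of olfactory bulb neuroblasts and amygdala intercalated cells, which also come from the lateral ganglionic eminence, were lower in cKO when all cells were used. Of the 8 tested 6 were lower (5.45% of all genes), the factor genes Etv1 and Foxp2, the calcium buffer gene Calb2, the neuregulin receptor gene Erbb4, the neurotensin precursor gene Nts and the dopamine synthesis gene Th. Etv1 gave 46 WT and 5 cKO UMIs, Calb2 59 and 4, Erbb4 35 and 6, and Th 33 and 0. These genes passed the filter through WT alone, which set their direction. The count of 6 therefore cannot be read as an excess over all genes. Summed without the genes of the rule, the 13 listed genes were at 494 CPM in WT and 155 CPM in cKO. They were at 566 and 446 CPM in direct pathway-type neurons, at 522 and 251 CPM in Lhx6 interneurons, at 972 and 507 CPM in caudal-type interneurons, and at 338 and 554 CPM in Bcl11b glutamatergic neurons. Etv1 was at 26.2 CPM in WT and 3.55 CPM in cKO. Nts was at 95.2 and 14.2 CPM, with 49.7% of its WT UMIs in 1 cell, and Th gave 33 UMIs in WT, 26 of them in 1 cell, and 0 in cKO. Calb2 and Erbb4 were not called without the cells with foreign markers. In cells chosen by Six3 and Sp9 Nts (-1.42) was called, Etv1 (-0.54), Th (-0.54), Foxp2 (-0.74) and Erbb4 (-0.59) were not, and Calb2 turned direction (0.31).

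**Figure D4:**
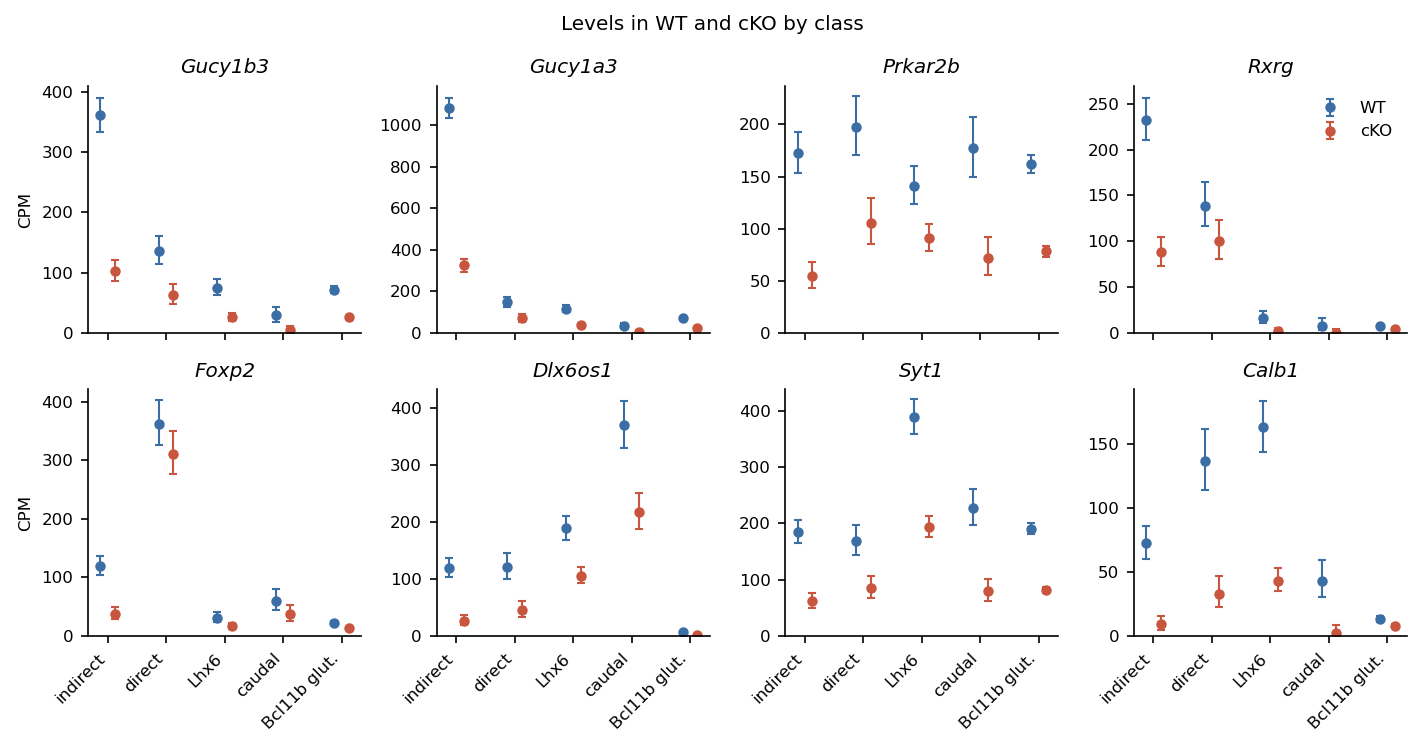
Level of 8 genes in CPM (y axis, a separate linear scale for each gene) in WT (blue) and cKO (red), for indirect and direct pathway-type neurons, Lhx6 and caudal-type interneurons and Bcl11b glutamatergic neurons (x axis), with Poisson intervals. Gucy1b3, Gucy1a3, Prkar2b and Syt1 were lower in cKO in all classes shown, and Foxp2 was at 119 and 37.7 CPM in indirect but 362 and 311 CPM in direct pathway-type neurons.

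The genes with the largest differences fell into those that differed in every class and those that came from single cells. Among the 10 lowest in cKO, Fam136a was at 101 CPM in WT and 3.55 CPM in cKO indirect pathway-type neurons, and at 70.0 and 6.62 CPM in direct pathway-type neurons. Coa3, which encodes an assembly factor of cytochrome c oxidase, was at 164 and 27.0 CPM, and at 211 and 60.7 CPM in direct pathway-type neurons. Dynll1, the dynein light chain gene, was at 1252 and 273 CPM, and at 1206 and 421 CPM in direct pathway-type neurons. Pcp4, a calmodulin regulator gene, was at 481 and 86.0 CPM, and at 403 and 218 CPM in direct pathway-type neurons. Also in the 10 were N6amt2, Mrpl14 of the mitochondrial ribosome, and the neuronal RNA-binding protein gene Elavl4. Dynll1 shares at least 95% of its sequence over 100 bases with transcripts of 176 other genes and Fam136a with 2, so their counts are uncertain. Pcp4 overlaps Igsf5 on the same strand, and Coa3 and Mrpl14 overlap Cntd1 and Tmem63b on the opposite strand.

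Among the 10 highest, Gm8730 was at 30.8 CPM in WT and 786 CPM in cKO, and at 28.8 and 641 CPM in direct pathway-type neurons. It is a processed pseudogene nearly identical to the ribosomal protein gene Rplp0 and to 3 other pseudogenes, so its count is uncertain. Arrdc4, an arrestin-domain gene responsive to glucose, was at 25.7 and 176 CPM, and at 35.0 and 235 CPM in direct pathway-type neurons. Sh3bgr was at 1.14 and 35.5 CPM, and 1700124L16Rik at 3.99 and 43.3 CPM.

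The remaining extremes rested on single cells. In WT 1 cell held 78.9% of the Npy UMIs and 1 cell held 87.8% of the Cck UMIs, and 2 cells held 83.0% of the Sst UMIs. Npy was at 491 CPM in WT and 11.4 CPM in cKO, and at 22.5 and 12.3 CPM without the cells with foreign markers. In cKO 1 cell held every UMI of Stfa1, S100a9 and S100a8, genes of granulocytes, and 1 cell held 191 of the 201 UMIs of Klf2. Id1 and Timp3 were similar, with 74.8% and 76.1% of their cKO UMIs in 1 cell. None of these 9 genes was called without the cells that held markers of another type. Npy, Sst, S100a8 and S100a9 were themselves among those markers, so for them this is no independent check.

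Glia and stress genes showed the same dependence. Of 14 tested stress and glucocorticoid response genes 5 were higher in cKO (Per1, Sgk1, Cdkn1a, Arrdc4 and Txnip), against 2.22% of all genes. Without the cells with foreign markers Arrdc4 was higher and the metallothionein genes Mt1 and Mt2 were lower, Mt1 being at 59.3 CPM in WT and 14.7 CPM in cKO. Both metallothionein calls leaned on single WT cells that were not left out. In WT 1 cell held 67 of the 97 Mt1 UMIs, and 1 cell held 13 of the 30 Mt2 UMIs. The glial genes Fabp7 and Vim were also higher, with 53.1% of the cKO Fabp7 UMIs in 1 cell, and no gene of the 3 tested was called without those cells. The haemoglobin and other erythroid genes summed to 82.7 CPM in WT and 7.81 CPM in cKO. In WT 1 cell held 31 of the 41 Hba-a1 UMIs and 1 cell held 72 of the 98 Hbb-bs UMIs, and no erythroid gene was called without the cells with foreign markers.

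Within the population, the cells that qualified on different genes differed in others. Thinned to 2000 UMIs, Foxp1 was found in 81.5% of the WT cells with Penk, in 87.3% of those with Adora2a but no Penk, and in 60.5% (48.6 to 71.6) of those with Gucy1a3 alone. In cKO the shares were 92.9%, 97.1% and 85.4%. Rxrg was found in 46.9%, 32.4% and 23.7% of the same WT groups and in 21.4%, 11.8% and 12.5% of those in cKO. Six3 did not follow this order in WT, where it was found in 43.2%, 43.7% and 43.4%.

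Near the threshold in WT, Dlx6os1 was more frequent and Foxp1 less frequent. Foxp1 was found in 37.5% of WT cells with a sum of exactly 2 and in 15.5% (7.35 to 27.4) of those just outside, against 80.9% of those with a sum of 3 or more. Dlx6os1 was found in 41.7% of the WT cells with a sum of 2 and in 60.3% (46.6 to 73.0) just outside, against 16.2% with 3 or more. Foxp2 was found in 33.3%, 36.2% and 8.82% of the same groups, and Erbb4, a neuregulin receptor gene of migrating interneurons, in 29.2%, 24.1% and 1.47%. In cKO the cells with a sum of 2 stood closer to the rest, with Foxp1 in 79.5%, against 96.6% with 3 or more, and Dlx6os1 in 0 of 39 cells, which allows a share of up to 7.69%. The cells just outside had 47.1% with Foxp1 and 27.5% with Dlx6os1 in cKO. Depth moved with this order in WT, as the median was 4077.5 UMIs just outside, 4598 with a sum of 2 and 6941 with 3 or more, and its part in these differences beyond thinning was not tested.

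**Figure D5:**
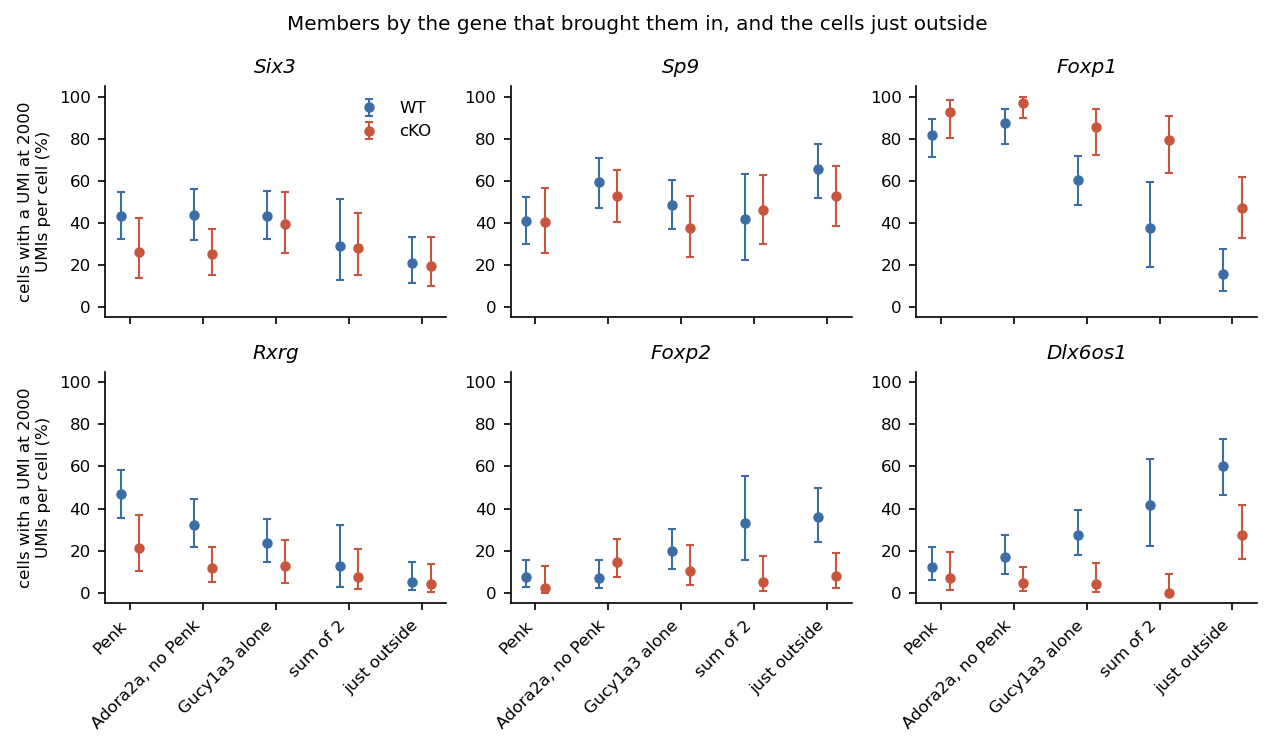
Percentage of cells with at least 1 UMI of each gene after thinning to 2000 UMIs (y axis), for indirect pathway-type neurons with Penk, with Adora2a but no Penk, with Gucy1a3 alone or with a sum of exactly 2 UMIs, and for the cells just outside with a sum of 1 (x axis), in WT (blue) and cKO (red), with Clopper-Pearson intervals. The groups with a sum of 2 overlap the first 3. In WT Foxp1 was found in 15.5% of the cells just outside and Dlx6os1 in 60.3%.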

How the data were processed

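RNA was measured by 10x Genomics Chromium in 1 WT and 1 cKO library, grouped by the genotype in the labels. For each library the authors deposited raw UMI counts per gene (27998 genes) and barcode, written by Cell Ranger 3.0.1 per the file headers. The submitters' processing notes list STAR, Cell Ranger 2, Seurat and the build mm9 without roles, and how cells were called is not given in the sources used here. A combined matrix, copies of the counts and the authors' cluster marker table (fold changes and p-values) were not used.

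Barcodes with at least 500 genes and at most 10% mitochondrial UMIs were kept. The members and the gene lists were chosen with earlier results of these data known. Counts were summed per class and library and scaled to CPM. Levels carry exact Poisson intervals, ratios exact conditional binomial intervals and shares Clopper-Pearson intervals (for a count of 0, the text gives the limit of 3 counts instead, which is slightly lower). Intervals of differences of shares combine the Clopper-Pearson limits of both shares by Newcombe's square-and-add method, in place of its usual Wilson limits. No test was run, because each group is 1 library. Genes needed 20 UMIs (over both libraries, or over both classes in each library) and were called at 2-fold on the log2(CPM + 10) scale, which understates the change of low genes. A gene near 0 in 1 class or library could pass through the other alone, and its direction was then set by the filter. Between classes, genes of the rule were left out.

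Beyond the listed genes, the text names the 10 genes highest and lowest between libraries (at least 30 UMIs in 1 library, intervals not overlapping), the 10 highest and lowest against direct pathway-type neurons, and the 6 against each interneuron class. Mitochondrial, haemoglobin and sex-linked genes were left out of this choice, except that Xist and Ddx3y were given to compare the libraries. Cells with foreign markers were found by at least 3 UMIs of a type's genes (5 for Npy and Sst), a limit set after seeing the data. The genes that served as markers, such as Cldn5, Rgs5, Npy, Sst, S100a8 and S100a9, had to fall when these cells were left out.

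Doublets were scored with Scrublet in scanpy 1.11.5. Its automatic threshold called 165 WT cells and 0 cKO cells. An alternative setting therefore left out the highest scores, at 0.8% of cells per 1000 kept cells (5.41% of WT and 4.86% of cKO cells). The main results kept these cells. Scripts ran in Python 3.11.15 with numpy 2.4.6, scipy 1.17.1 and pandas 2.3.3 and were tested on simulated data, and TMM factors came from edgeR 4.0.16 in R 4.3.3, used for scaling alone. Gene positions were taken from GENCODE M21 (GRCm38) by Ensembl identifier, with 391 of 391 found, and near-identical copies were sought with BLAST+ 2.17.0. Whether counting used strand is not given in the sources used here. Results for a few genes that these choices would name are not reported here.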

Additional observations from a re-analysis of the deposited data

Results flagged for a closer look

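Npy differed in opposite directions between the libraries in the pathway types. On the log2 scale of CPM + 10 it was at -4.55 (cKO over WT) in indirect pathway-type neurons and at 2.61 in direct pathway-type neurons. The levels were 491 CPM in WT and 11.4 CPM in cKO for the indirect type, and 12.3 CPM and 127 CPM for the direct type. Without the cells that held markers of another type the value for the indirect type was -0.54, and the direct type was at 9.51 CPM in WT and 13.0 CPM in cKO. Npy was itself among those markers, so for it this is no independent check. Klf2, a Krüppel-like factor gene of endothelial cells, stood at 1.95 in indirect and at -1.02 in direct pathway-type neurons, and at -0.05 in the indirect type without those cells, where the direct type was at 3.57 CPM in WT and 7.81 CPM in cKO, the other direction. The difference between the pathway types was not tested for either gene, as each rests on 1 library per genotype.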

How the results depend on the processing

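Of the 98 named differences, all were still past 2-fold with TMM factors or without mitochondrial, ribosomal protein and haemoglobin genes, 95 without the highest doublet scores, 80 with the mean of each cell's CPM, 67 without the cells with markers of another type and 60 under the strict filter. Of the 54 between the libraries, 48 were past 2-fold with at least 3 UMIs of the indirect genes, 28 with Penk required and 24 in cells chosen by Six3 and Sp9. The cells with foreign markers and the choice by Six3 and Sp9 were added after seeing the data, and Scrublet's automatic threshold was not run as an alternative, since it called 0 cKO cells. The share was 1.92% in WT and 1.34% in cKO under the strict filter, 1.52% and 1.02% without Gucy1a3, and 2.84% and 2.48% by Six3 and Sp9. It was 1.20% (0.952 to 1.49) and 0.691% (0.498 to 0.933) with Penk required. At 3 UMIs it was 3.03% (2.63 to 3.47) and 1.96% (1.62 to 2.34). The WT and cKO intervals overlapped in the first 3 of these settings and did not overlap with Penk required or at 3 UMIs. With CPM + 1, 605 genes were higher and 1287 lower in cKO. Against direct pathway-type neurons the higher and lower genes numbered 67 and 87 with CPM + 1, 18 and 33 at 50 UMIs, 19 and 77 without foreign markers, 4 and 8 under the strict filter, and 16 and 43 by mean CPM (27.1% of the calls higher, against 41.4%), and 16 were higher with a margin of 2 UMIs. Against Lhx6 interneurons they were 23 and 56 under the strict filter, 79 and 236 without foreign markers, and 92 and 168 by mean CPM (35.4% higher, against 45.7%). Against caudal-type interneurons they were 22 and 48 under the strict filter, and 271 were lower without foreign markers. Six3 was found in 29.1% of WT and 16.5% of cKO cells at 1000 UMIs and in 65.2% and 50% without thinning, and Sp9 in 31.3% and 27.2%, and 80.9% and 92.4%. Foxp1 without thinning was in 75.6% of the WT cells with Gucy1a3 alone.

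Some log2 differences (cKO over WT) changed direction. Under the strict filter these were Sst (1.34), Klf2 (-3.36), Cdkn1a (-1.97), Penk (0.36), Sgk1 (-0.87), Txnip (-0.092) and Fabp7 (-0.44), which also turned (-0.44) without the highest doublet scores. Without foreign markers they were Sst (0.59), Klf2 (-0.050), Timp3 (-0.050), Sgk1 (-0.15), Fabp7 (-0.90) and Vim (-0.81), and, against Lhx6 interneurons, Sparc (-0.75) and Sepp1 (-0.061). With Penk required they were Id1 (-0.54), Timp3 (-0.20), Cdkn1a (-0.26), Fabp7 (-0.96) and Vim (-2.34), and by Six3 and Sp9 Sst (0.15), Klf2 (-0.38), Cdkn1a (-0.10), Calb2 (0.31) and Nos1 (0.015). The strict filter left 32 WT and 18 cKO cells, and the cause of the other changes was not tested.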
